A study of Homo sapiens with 12 samples.

Results

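The 105 lines described here are the abundant part of the RNA pool of 22Rv1 cells that stood at or under 0.5 of its normoxia level in hypoxia. They were chosen by measured values from the 60230 unnamed lines of the deposited count table. A line had to have a mean of at least 16 CPM (a library's count divided by its column total, in M) over all 12 libraries. The ratio of its mean CPM in hypoxia vehicle cells to that in normoxia vehicle cells also had to be at most 0.5. Of the 8760 lines that met the first limit, 105 met both, or 1.20%. The files do not pair lines with genes, so the labelled cell line could not be checked against marker genes. Lines are described by their levels, and 4 are given by number, counting data lines from the first. Their order was not used to name any gene, and no sequence is shown because no line could be matched to one.

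The established line 22Rv1 derives from a human prostate carcinoma and carries an active androgen receptor. Its cells were seeded in triplicate wells, with 1 set in normoxia and 1 in hypoxia at 1% oxygen, and the drug arms received 10 nM zotatifin for 24 hours. The groups were normoxia vehicle, hypoxia vehicle, normoxia zotatifin and hypoxia zotatifin, with 3 libraries of total RNA each. The titles name the untreated arms vehicle, while their treatment tag reads none. The titles number biological replicates, but nothing else says that the wells were separate cultures or days, so p-values measure only the spread between these samples. Any other difference between the oxygen sets cannot be told apart from oxygen.

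Cells sense low oxygen mainly through the hypoxia-inducible factors, transcription factors whose alpha subunits are destroyed while oxygen-dependent hydroxylases are active. Their stabilisation turns on genes of glycolysis, angiogenesis and iron handling, while many other transcripts fall, among them ones tied to growth and to oxygen-consuming metabolism. Zotatifin acts on a different layer. It clamps eIF4A, the RNA helicase that unwinds the leaders of mRNAs for the scanning ribosome, onto purine-rich RNA and so blocks translation of selected mRNAs. Its effects on RNA levels can be indirect.

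Total estimated counts ranged from 10.4 to 16.5 M per library, where M is the SI prefix mega. The 3 hypoxia vehicle libraries held 10.5 to 12.2 M and the 3 normoxia vehicle libraries 15.6 to 16.5 M. Outside 2 lines described below, the smallest estimated count of any of these lines in any library was 16. With those 2 included, the median over libraries of each library's median estimated count was 1167. Lines with an estimated count above 0 numbered 23999 to 25415 in the normoxia libraries and 28023 to 31987 in the hypoxia libraries. The part of the depth gap and of this difference in the results was not tested.

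Together the 105 lines took a share of all counts that differed between every pair of groups by more than the spread between libraries. The share was 2.50%, 2.57% and 2.58% in the normoxia vehicle libraries and 0.912%, 0.884% and 0.880% in the hypoxia vehicle libraries, the contrast that chose the lines. With zotatifin it was 1.45%, 1.53% and 1.47% in normoxia and 0.621%, 0.593% and 0.604% in hypoxia. The 4 groups did not overlap, and normoxia vehicle was highest and hypoxia zotatifin lowest. The median level over the lines followed the same order, at 167 ± 3.26 CPM in normoxia vehicle, 111 ± 3.35 in normoxia zotatifin, 60.7 ± 1.92 in hypoxia vehicle and 39.7 ± 0.020 in hypoxia zotatifin cells (SD, n = 3). In RNA from whole cultures, fewer cells with a transcript and less of it per cell cannot be told apart.

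**Figure D1:**
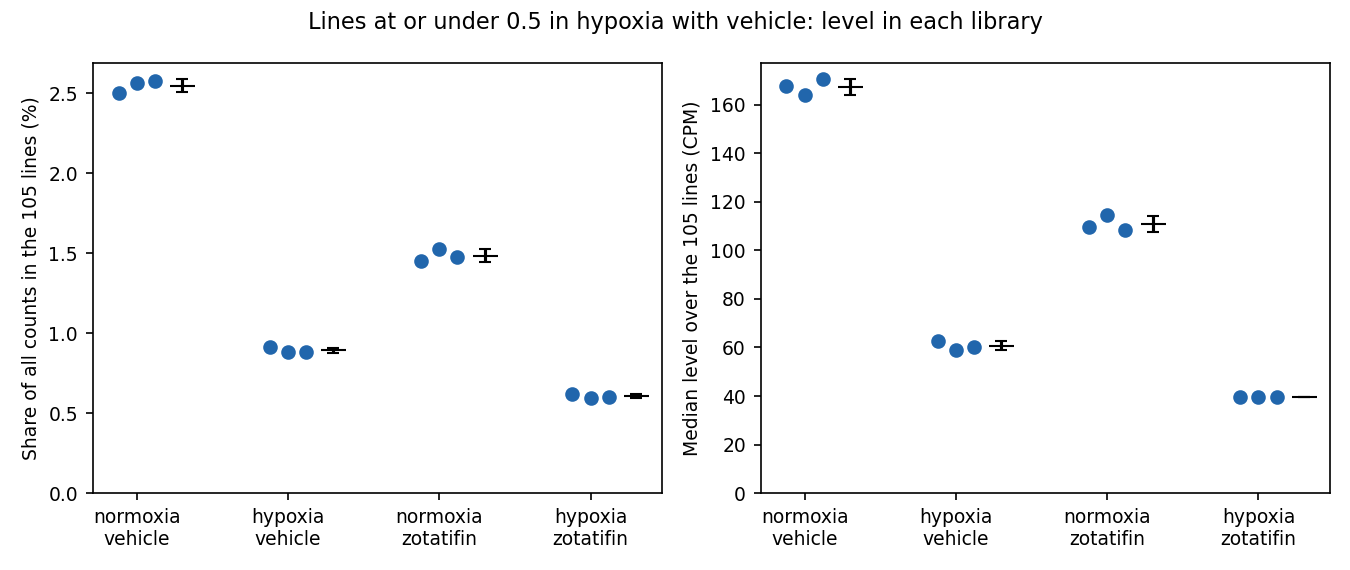
Share of all counts in percent (left) and median level in CPM (right) of the 105 lines in each library, with points for the 3 libraries of a group and the mean ± SD beside them. The share lies between 2.50% and 2.58% in normoxia vehicle and between 0.593% and 0.621% in hypoxia zotatifin libraries, with the other groups between.

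The choice of lines rested on the vehicle libraries, so their values there are a description. The hypoxia to normoxia ratio with vehicle had a median of 0.379, and in 103 of the 105 lines the 3 hypoxia libraries lay below all 3 normoxia libraries (31.4% of lines of at least 16 CPM). The line with the lowest ratio, line 6088, stood at 48.1, 46.7 and 45.8 CPM in normoxia vehicle and at 1.31, 2.10 and 1.53 CPM in hypoxia vehicle, a ratio of 0.035. The line with the next lowest ratio stood at 137, 125 and 121 CPM against 23.9, 16.1 and 26.1 CPM. The limit of 0.5 cut through a continuous range, with ratios of 0.498 and 0.499 just inside and 0.501 and 0.502 just outside. At the limit of 16 CPM, the lines just inside had means of 16.02 and 16.8 CPM and those just outside 14.5 and 15.6 CPM.

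The levels of these lines spread widely. Means over all 12 libraries ran from 16.02 to 672 CPM, with a median of 97.0 against 47.5 CPM for all lines of at least 16 CPM. CPM is not corrected for transcript length, so these levels do not rank molecules between lines. The line with the highest value in normoxia vehicle cells stood at 1579, 1612 and 1444 CPM there and at 422, 401 and 362 CPM in hypoxia vehicle cells. With zotatifin it stood at 565, 637 and 586 CPM in normoxia and 152, 149 and 153 CPM in hypoxia. Its 4 groups did not overlap, and both hypoxia and the drug went with a lower level. The second stood at 1110, 1189 and 1060 CPM in normoxia vehicle, 532, 484 and 470 in hypoxia vehicle, 435, 485 and 474 in normoxia zotatifin and 190, 188 and 185 CPM in hypoxia zotatifin cells. Here hypoxia alone and zotatifin alone gave overlapping levels, and the combination lay below both.

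Whether the hypoxia fall held under zotatifin was asked of the 6 zotatifin libraries, which had no part in the ratio that chose the lines, though they entered the mean of 16 CPM. It held in nearly all of them. By edgeR's quasi-likelihood test with Benjamini-Hochberg adjustment over 17993 lines, 102 of the 105 lines were lower in hypoxia zotatifin than in normoxia zotatifin cells. Among all lines tested 22.4% were called lower, and 35.8% among those of at least 16 CPM. One line was called higher, against 20.3% of all lines tested and 21.9% of those of at least 16 CPM, and 2 were not called. All 105 lines passed the filter on low counts. The 3 hypoxia libraries lay below the 3 normoxia libraries in 101 lines, against 34.6% of lines of at least 16 CPM (23.4% of all lines tested). They lay above in 1 line, against 29.7% of lines of at least 16 CPM (29.0% of all lines tested).

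The size of the fall was read in 2 ways. The median edgeR log2 fold change was -1.36, against 0.01 over all lines tested and -0.06 over those of at least 16 CPM. A fall of at least 2-fold was called in 77 of the 105 lines, against 1.36% of lines of at least 16 CPM (1.7% of all lines tested). On the scale of the rule itself, the ratio of mean CPM was at most 0.5 in 73 lines (69.5%), against 1.21% of lines of at least 16 CPM. It was at most 0.25 in 15 lines, between 0.25 and 0.5 in 58, between 0.5 and 0.75 in 27, between 0.75 and 1 in 3 and above 1 in 1. The remaining line was listed at 0 in every zotatifin library and has no ratio. Choosing lines for a low ratio with vehicle favours a shallower fall in libraries that did not choose them. Of the 104 lines with a ratio, 41 fell deeper with zotatifin than with vehicle. Below a mean of 64 CPM the ratio was at most 0.5 in 18 of 32 lines, and from 64 CPM up in 55 of 73.

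**Figure D2:**
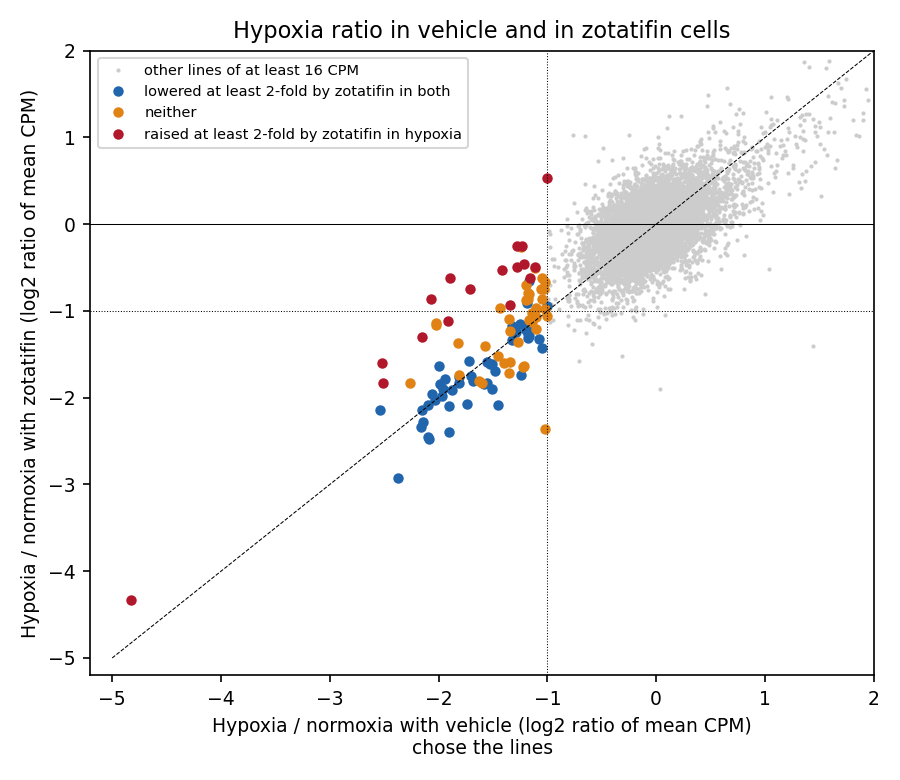
Log2 ratio of mean CPM, hypoxia to normoxia, with vehicle (x axis, which chose the lines) and with zotatifin (y axis), for 104 of the 105 lines coloured by their zotatifin response and for the other lines of at least 16 CPM in light grey, drawn up to 2 on each axis. Dotted lines mark ratios of 0.5 and the dashed line equal ratios. All coloured points but 1 lie below 0 on the y axis, and 73 lie at or below -1.

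The 2 lines with the largest called fall under zotatifin were lines 6088 and 54422. Line 6088 stood at 99.7, 97.9 and 104 CPM in normoxia zotatifin and 5.28, 4.79 and 4.91 CPM in hypoxia zotatifin cells. The log2 fold change was -4.37, with an SE of 0.09 back-calculated from the test statistic (n = 3 libraries per group, edgeR adjusted p = 2.66e-27). Zotatifin went with a higher level of this line in both oxygen conditions, and the 4 groups did not overlap. Line 54422 stood at 119, 110 and 105 CPM in normoxia vehicle and 20.5, 19.7 and 24.3 CPM in hypoxia vehicle cells. Under zotatifin it stood at 32.3, 35.9 and 31.0 CPM in normoxia and 3.98, 5.57 and 3.46 CPM in hypoxia, and its log2 fold change was -2.94, with an SE of 0.14 (n = 3, edgeR adjusted p = 5.81e-13). In this line the drug and hypoxia each went with a lower level, and its lowest libraries were those with both.

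One line had a fall under zotatifin much deeper than its fall with vehicle. It stood at 485, 529 and 548 CPM in normoxia vehicle and at 252, 268 and 250 CPM in hypoxia vehicle, a ratio of 0.493 close to the limit of the rule. In normoxia zotatifin it stood at 506, 533 and 538 CPM, overlapping normoxia vehicle. In hypoxia zotatifin it stood at 99.7, 102 and 105 CPM, a ratio of 0.194 (edgeR log2 fold change -2.40, SE 0.05). Zotatifin thus went with a lower level of this line in hypoxia, where the libraries did not overlap. It was singled out after its values were seen.

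Line 2396 was the 1 line called higher in hypoxia under zotatifin. It stood at 49.3, 53.3 and 55.7 CPM in normoxia vehicle and 25.6, 29.6 and 23.8 CPM in hypoxia vehicle, which made it the line closest to the limit of 0.5. Under zotatifin it stood at 43.3, 45.0 and 41.7 CPM in normoxia and 61.4, 67.4 and 59.0 CPM in hypoxia. The groups did not overlap in either arm, and the log2 fold change under zotatifin was 0.49 (SE 0.07, edgeR adjusted p = 7.3e-07, n = 3). Its direction was thus opposite in the 2 arms.

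The 2 lines not called were the same 2 whose hypoxia and normoxia vehicle libraries overlapped, and their place in the list rested on single libraries. Line 23747 stood at 33.0, 17.7 and 39.3 CPM in normoxia vehicle, and at 0, 0 and 38.1 CPM in hypoxia vehicle. Under zotatifin it stood at 5.76, 34.9 and 0 CPM in normoxia and 14.4, 19.5 and 0 CPM in hypoxia (log2 fold change -0.25, SE 1.57, edgeR adjusted p = 0.917). Libraries of 1 group thus differed more than the groups did. The other stood at 3.61, 0 and 172 CPM in normoxia vehicle and 0, 0 and 31.5 CPM in hypoxia vehicle. It was listed at 0 in all 6 zotatifin libraries, where 3 counts would be at most 0.289 CPM, a limit that covers counting error only. Without these 2 lines, 102 of 103 were called lower under zotatifin and 73 had a ratio of at most 0.5.

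The weakest call was a line at 28.1, 23.1 and 15.6 CPM in normoxia zotatifin and 16.3, 8.14 and 13.7 CPM in hypoxia zotatifin cells. Its libraries overlapped (log2 fold change -0.86, edgeR adjusted p = 0.0394). Apart from line 23747, 2 lines had a ratio between 0.75 and 1. They stood at 229, 226 and 219 against 198, 185 and 184 CPM, and at 34.8, 34.8 and 36.4 against 31.4, 28.0 and 29.5 CPM. Both were called lower, with hypoxia libraries below all normoxia libraries, and both stood higher with zotatifin than with vehicle in each oxygen condition.

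**Figure D3:**
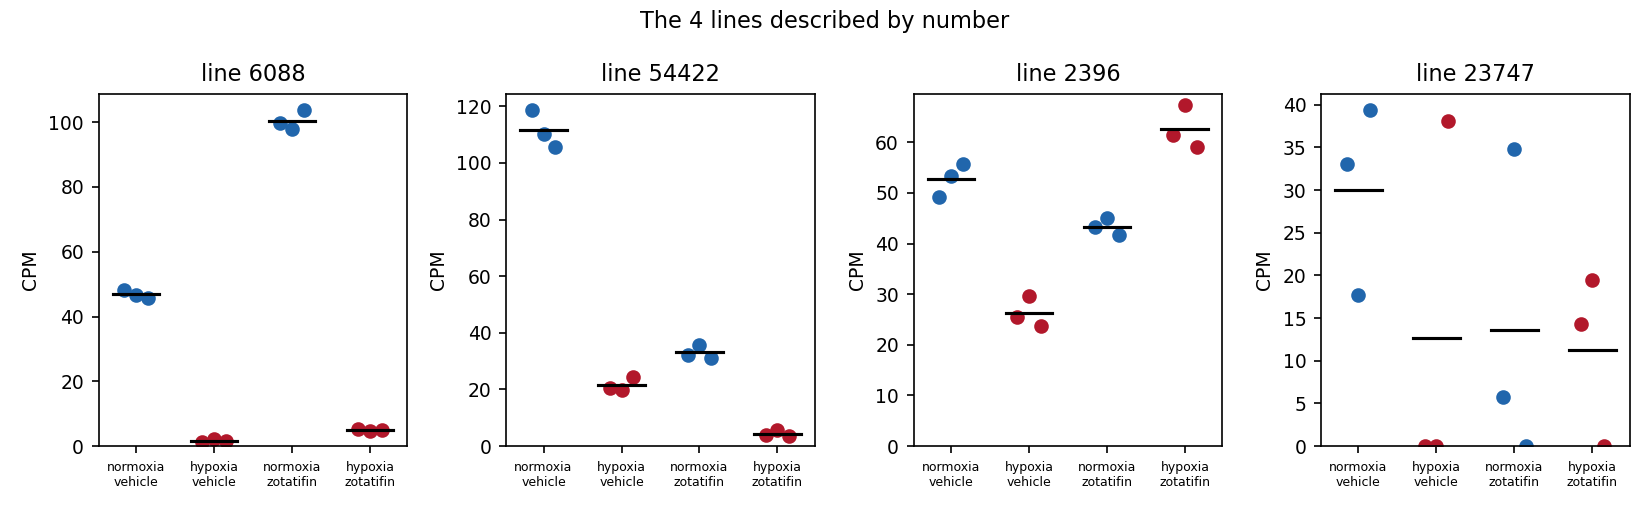
Level in CPM of lines 6088, 54422, 2396 and 23747 in each library, in blue for normoxia and red for hypoxia, with a bar at the mean of each group. Hypoxia lies below normoxia in both arms for lines 6088 and 54422, changes side between arms for line 2396 and overlaps normoxia in both arms for line 23747.

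The reverse choice gave a list of similar length. Of the lines of at least 16 CPM, 106 had a ratio of at most 0.5 in the zotatifin libraries, and 73 of these were among the 105, which is 69.5% of the 105 lines and 68.9% of the 106. The vehicle and zotatifin contrasts share no libraries. The 33 lines of the reverse list outside the 105 had vehicle ratios from 0.509 to 2.72 with a median of 0.696, and 30 of them were below 1. Across the 104 lines with both ratios, Pearson's r of the log2 ratios was 0.722 and Spearman's rho 0.665. Without line 23747 and the 2 lines farthest from the median vehicle ratio, r was 0.631 over 101 lines. Over the 8759 lines of at least 16 CPM with both ratios, r was 0.714 and rho 0.531. All points share the same libraries and totals, and lines are not independent replicates.

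Lines that rose with hypoxia were held against the same measure. With vehicle, 121 lines of at least 16 CPM had a ratio of at least 2, and 73 of them (60.3%) kept a ratio of at least 2 under zotatifin, where 1.15% of all lines of that abundance had one. For the 105 lowered lines the matching share was 69.5%. The median ratio under zotatifin was 2.17 for the raised lines and 0.398 for the lowered ones. The difference between the lists was not tested.

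The response of the 105 lines to zotatifin itself is given as a description, because vehicle libraries that chose the lines are one side of each comparison. Choosing lines that were high in normoxia vehicle and low in hypoxia vehicle tilts the drug ratio downward in normoxia and upward in hypoxia. The lines did not respond alike. The log2 ratio of zotatifin to vehicle in normoxia had a median of -0.95 and ran from -1.93 to 1.36, with quartiles of -1.45 and 0.16. In hypoxia the median was -0.86, the range -2.31 to 1.99 and the quartiles -1.48 and 0.51. The medians over all lines of at least 16 CPM were 0.01 and 0.00.

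Lower levels with the drug prevailed. In normoxia 50 of the 105 lines stood at least 2-fold lower with zotatifin and 2 at least 2-fold higher, against 3.44% and 3.03% of lines of at least 16 CPM. In hypoxia 50 stood at least 2-fold lower and 17 at least 2-fold higher, against 4.49% and 4.94%. The zotatifin libraries lay below all vehicle libraries in 65 lines in normoxia and 62 in hypoxia, and above all of them in 25 and 34 lines. In lines of at least 16 CPM those shares were 34.8% and 38.8% for lower, and 37.0% and 39.1% for higher. Across the 104 lines, r between the log2 drug ratios in normoxia and in hypoxia, which share no libraries, was 0.932 (rho 0.917), beside 0.865 over the 8759 lines of at least 16 CPM with both ratios.

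The lines were parted by these ratios into ranges, which are not types. In the first range, 47 lines stood at least 2-fold lower with zotatifin in both oxygen conditions, or 44.8% of the 105, against 2.42% of lines of at least 16 CPM. In the second, 17 lines stood at least 2-fold higher with zotatifin in hypoxia. The other 40 lines were in neither range, and 1 was listed at 0 with zotatifin. Some of the 40 stood at least 2-fold lower with zotatifin in only 1 oxygen condition. Near the limits, 15 lines lay within 0.2 of -1 in normoxia on the log2 scale, 11 lay within 0.2 of -1 in hypoxia and 13 within 0.2 of 1 in hypoxia.

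**Figure D4:**
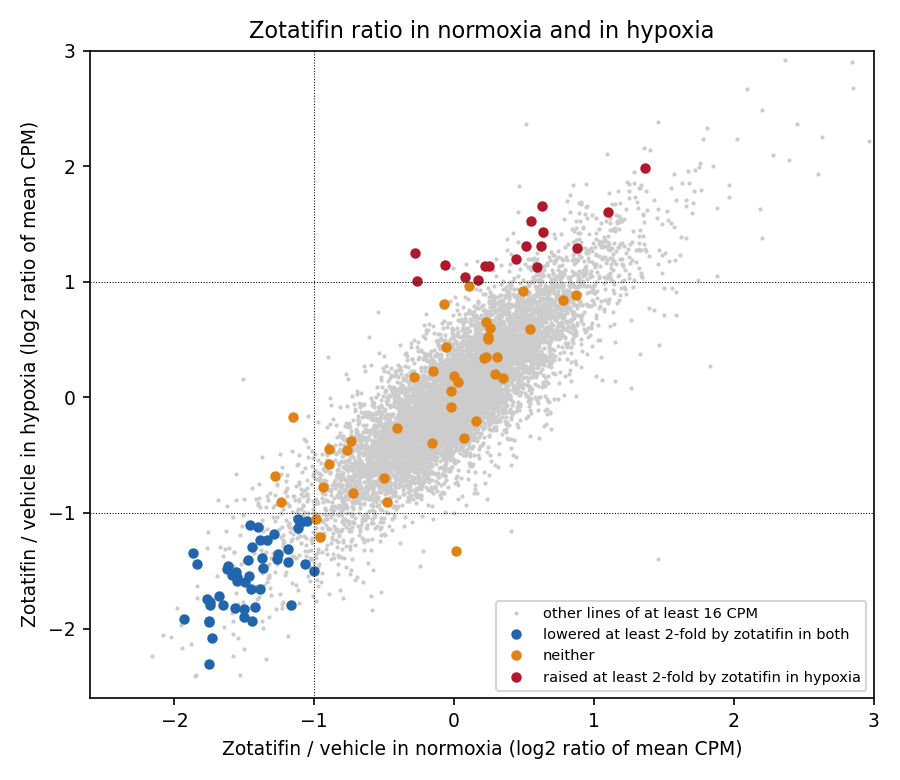
Log2 ratio of mean CPM, zotatifin to vehicle, in normoxia (x axis) and in hypoxia (y axis), for 104 of the 105 lines and for the other lines of at least 16 CPM in light grey, drawn from -2.6 to 3 on each axis. Dotted lines mark 2-fold limits. The 47 blue points lie at or below -1 on both axes and the 17 red points at or above 1 on the y axis.

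The rule and the limits of the first range fix most of what its 47 lines show. Each had to stand at or under 0.5 for hypoxia with vehicle and for zotatifin in both conditions, so a low level with both together is built in. Their median ratio was 0.312 for hypoxia with vehicle, 0.290 for hypoxia with zotatifin, 0.363 for zotatifin in normoxia and 0.350 for zotatifin in hypoxia. With both, they stood at a median of 0.107 of their normoxia vehicle level, with a range from 0.039 to 0.208. All 47 were called lower in hypoxia under zotatifin, against 35.8% of lines of at least 16 CPM and 22.4% of all lines tested. Of the 47, 44 had a ratio of at most 0.5, and 29 fell deeper with hypoxia under zotatifin than with vehicle. The zotatifin libraries had a part in choosing the 47, so these counts are a description. The line with the lowest drug ratio in normoxia among them stood at 807, 697 and 678 CPM in normoxia vehicle and 188, 210 and 176 CPM in normoxia zotatifin cells. In hypoxia it stood at 174, 177 and 182 CPM with vehicle and 48.4, 45.8 and 47.0 CPM with the drug. Levels with hypoxia alone and with the drug alone overlapped in this line, and the combination lay below both.

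The values of 2 others of the 47 were as follows. One line stood at 319, 363 and 363 CPM in normoxia vehicle, 84.1, 81.1 and 81.1 in hypoxia vehicle, 126, 138 and 124 in normoxia zotatifin and 24.4, 23.8 and 21.9 CPM in hypoxia zotatifin cells. Another stood at 263, 329 and 297, then 74.7, 66.3 and 67.0, then 84.4, 97.0 and 87.1, and last 15.9, 18.8 and 14.3 CPM in the same order of groups. In both the 4 groups did not overlap. Of the 165 lines of at least 16 CPM that the drug lowered at least 2-fold in both conditions but that are not among the 105, the median hypoxia ratio was 0.834 with vehicle and 0.792 with zotatifin. The 47 made up 22.2% of all 212 lines so lowered.

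The 17 lines raised by the drug in hypoxia had a shallower hypoxia fall under zotatifin. Their median hypoxia ratio was 0.375 with vehicle and 0.650 with zotatifin, and none of the 17 fell deeper under zotatifin, which their choice by a high hypoxia zotatifin level favours. Even so 16 of the 17 were called lower in hypoxia under zotatifin (35.8% of lines of at least 16 CPM, 22.4% of all lines tested). The exception was line 2396. In normoxia their median drug ratio was 1.43. The zotatifin libraries there lay above all vehicle libraries in 12 of the 17 and below all of them in 2. Among lines of at least 16 CPM the shares were 37.0% and 34.8%. The line with the largest rise stood at 39.7, 53.8 and 52.3 CPM in normoxia vehicle and 115, 130 and 130 CPM in normoxia zotatifin. In hypoxia it stood at 22.5, 23.3 and 21.5 CPM with vehicle and 89.8, 90.5 and 86.1 CPM with zotatifin. All hypoxia zotatifin libraries of this line were above all its normoxia vehicle libraries, yet below its normoxia zotatifin libraries.

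In 5 of the 17 the hypoxia ratio under zotatifin was still at most 0.5. Line 6088 was one. A second stood at 89.9, 109 and 138 CPM in normoxia vehicle, 21.4, 21.1 and 16.4 in hypoxia vehicle, 166, 181 and 171 in normoxia zotatifin and 53.0, 45.2 and 48.0 CPM in hypoxia zotatifin cells. The drug went with higher and hypoxia with lower levels in this line, and the 4 groups did not overlap.

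The 40 lines in neither range had a median drug ratio of 0.984 in normoxia and 1.07 in hypoxia. Their median hypoxia ratio was 0.436 with vehicle and 0.468 with zotatifin. Of the 40, 39 were called lower under zotatifin (35.8% of lines of at least 16 CPM, 22.4% of all lines tested). Line 23747 was the exception. The medians cover lines that differed both ways. The drug ratio ran from 0.411 to 1.83 in normoxia and from 0.398 to 1.95 in hypoxia. In normoxia the zotatifin libraries lay below all vehicle libraries in 16 of the 40 lines and above all of them in 13. Among lines of at least 16 CPM the shares were 34.8% and 37.0%, so these counts are near those of all such lines. The line at 485 to 548 CPM in normoxia vehicle, described above for its deeper fall under zotatifin, is one of the 40.

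Over all 105 lines, the mean was lowest in hypoxia zotatifin cells in 66 lines and in hypoxia vehicle cells in 38, leaving the line at 0 in both zotatifin groups. It was highest in normoxia vehicle cells in 72, in normoxia zotatifin cells in 32 and in hypoxia zotatifin cells in 1, line 2396. In 95 lines all hypoxia zotatifin libraries lay below all normoxia vehicle libraries, against 39.3% of lines of at least 16 CPM. Normoxia vehicle libraries chose the lines as high, so these orders and this count are a description.

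**Figure D5:**
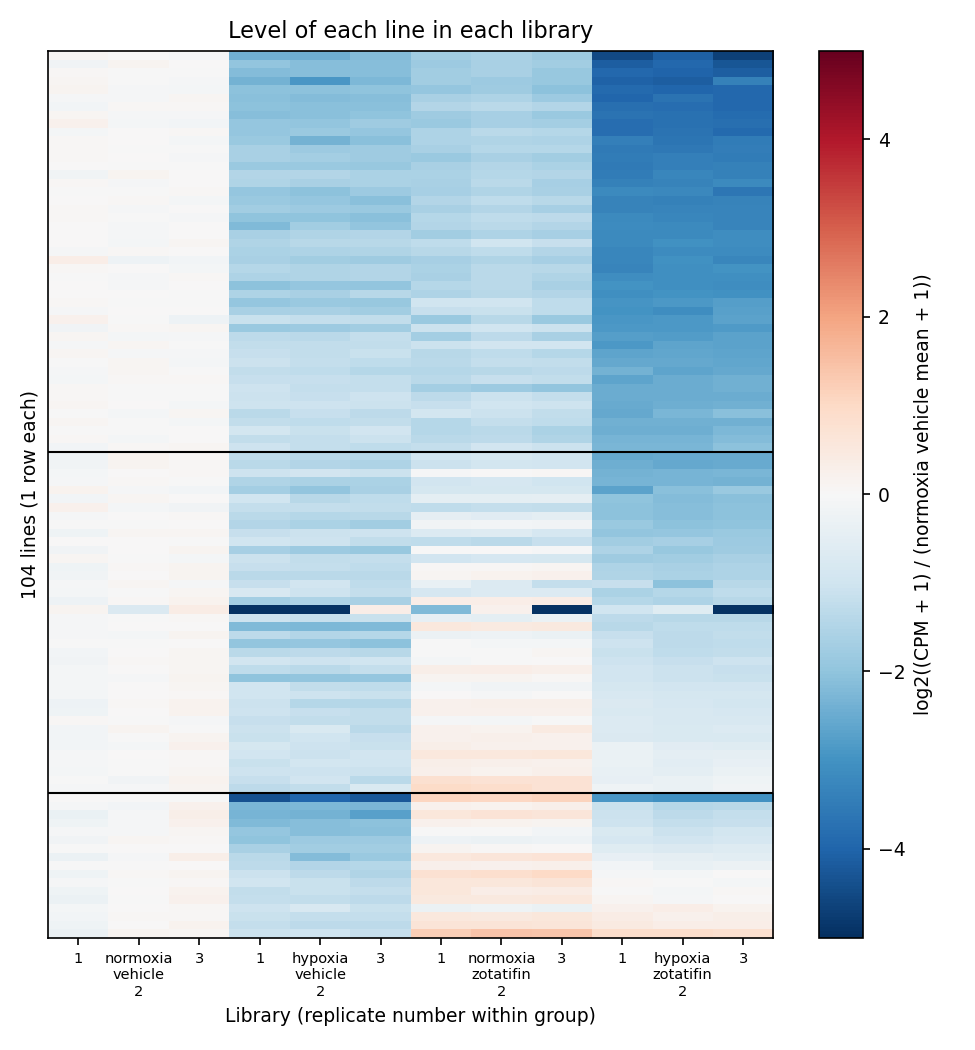
Level of 104 lines (rows) in the 12 libraries (columns), as log2 of CPM plus 1 over the normoxia vehicle mean plus 1, blue for lower and red for higher. Black lines part the 47 lines lowered by zotatifin in both conditions (top), the 40 in neither range (middle) and the 17 raised in hypoxia (bottom). The hypoxia zotatifin columns are darkest in the top block.

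The drug ratios were also read from vehicle libraries that had no part in the choice. The vehicle libraries of 1 replicate number were left out, lines were chosen again from the others, and the left-out libraries served as the vehicle level. With replicates 1, 2 and 3 left out in turn, 112, 101 and 98 lines were chosen, of which 102, 100 and 93 were among the 105. In the left-out pair the hypoxia ratio had a median of 0.405, 0.359 and 0.348, beside 0.379 for the 105 lines in all vehicle libraries. It was at most 0.5 in 80, 93 and 90 lines, against 1.16%, 1.23% and 1.37% of lines of at least 16 CPM. Zotatifin was at least 2-fold lower than the left-out vehicle libraries in both conditions in 44, 47 and 45 lines, against 2.40%, 2.42% and 2.13%. In hypoxia it was at least 2-fold higher in 17, 17 and 14 lines, against 4.81%, 5.23% and 5.73%. The median log2 drug ratio in normoxia was -0.60 against the left-out replicate 1, and -1.004 and -0.99 against replicates 2 and 3. In hypoxia it was -0.73, -0.88 and -0.93 against replicates 1, 2 and 3.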

How the data were processed

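The deposited table holds estimated counts per line for 12 libraries. Their column totals differ, so they were not scaled to a common total, but the totals do not show whether other scaling was applied. At a tolerance of 0.0005, 33.2% of the estimated counts above 0 were not whole. The submitters' processing notes name Salmon, DESeq, DESeq2 and hg38, with no version or role given; the annotation is not stated in the sources used here. Estimated counts divide reads between similar transcripts, so values of near-identical copies are uncertain.

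CPM and ratios used column totals. Tests used edgeR 4.0.16 (R 4.3.3) on rounded estimated counts, with filterByExpr (minimum count 10, minimum total 15), trimmed mean of M values (TMM) scaling, and a robust quasi-likelihood fit with 1 mean per group over 12 libraries. Tests were two-sided, with an adjusted p threshold of 0.05. Each SE given is the absolute log2 fold change divided by the square root of the test's F statistic. It is thus not a separate estimate of error. The script was tested on simulated data.

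The rule, the lines described and the ranges of drug response were chosen with earlier results of these data known. Lines given by number were the 2 with the lowest and the 2 with the highest log2 fold change under zotatifin that the rule on calls and overlap allowed; the last is not called, and a line at 0 in all zotatifin libraries was passed over. Others were taken at the extremes of level, vehicle ratio and drug ratio. Alternatives were RLE, upper quartile and no scaling, scaling without the 20 most abundant lines, no filter, DESeq2 1.42.0, limma-voom (limma 3.58.1), the 6 zotatifin libraries alone, a replicate block, leaving out each library, and other limits of the rule.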

Additional observations from a re-analysis of the deposited data

Results flagged for a closer look

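Line 2396 moved in opposite directions with hypoxia in the 2 drug arms, with no overlap between libraries in either. Its log2 ratio of mean CPM was -1.002 with vehicle and 0.53 with zotatifin. The difference was not tested, since the vehicle libraries chose the line.

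Zotatifin moved 3 lines in opposite directions in normoxia and hypoxia, again with no overlap in either and with the difference not tested. All 3 were lower with the drug in normoxia and higher in hypoxia. Among lines of at least 16 CPM, 34.8% lay apart as lower in normoxia and 39.1% as higher in hypoxia. The share with both was not counted. For line 2396 the log2 ratio was -0.28 in normoxia and 1.25 in hypoxia. A line with means of 130.0 CPM in normoxia vehicle and 108 CPM in normoxia zotatifin cells went from 35.0 to 70.2 CPM in hypoxia, log2 ratios of -0.27 and 1.01. A line with means of 116 and 110.0 CPM in normoxia went from 28.6 to 49.9 CPM in hypoxia, log2 ratios of -0.07 and 0.81. Its normoxia groups were barely apart, with the lowest vehicle library at 114.9 and the highest zotatifin library at 114.2 CPM. The choice of lines low in hypoxia vehicle favours this pattern. Groups of 3 libraries were not searched for single outlying libraries.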

How the results depend on the processing

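The count of 102 lines called lower under zotatifin was 101 or 102 under every alternative run, the count called higher stayed at 1, and the count at least 2-fold lower (77) was 73 to 79, or 74 to 80 with any library left out. Their median log2 fold change (-1.36) was -1.31 under upper quartile scaling, where the median of all lines also moved, and -1.38 to -1.35 with 1 library left out. The number of lines chosen followed the ratio limit, at 59 for 0.4 (52 of them at most 0.5 under zotatifin) and 167 for 0.6 (78 of them). The number was 126 with a minimum of 8 CPM (86 of them) and 91 with 32 CPM (64 of them). With TMM-scaled CPM in place of column totals it was 119 (79 of them). With 1 vehicle library left out of the choice it was 94 to 110, and the count at most 0.5 under zotatifin (73) was 70 to 76 with any library left out. Choosing abundance from the 6 vehicle libraries alone gave 106 lines, 73 of them at most 0.5. Line 23747 changed sign under limma-voom (0.98) and ran from -0.85 to 2.05 with 1 library left out, being positive without hypoxia zotatifin replicate 3 (0.24) or normoxia zotatifin replicate 2 (2.05). It was called in none of these. Replicate numbers are not stated to mark shared cultures, and for that reason the main tests did not take the samples as paired. Deviations of same-numbered zotatifin libraries correlated at 0.070, 0.224 and 0.176, and each of the 6 correlated best with its own number. These values do not settle whether the samples are paired. With a replicate block 101 lines were called lower, 1 higher and 77 at least 2-fold lower, with a median of -1.36.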

Other observations

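The rule did not use whether estimated counts were whole numbers. All 12 estimated counts were whole in 32 of them (30.5%), against 8.06% of lines of at least 16 CPM and 8.26% of the 121 lines that rose with hypoxia. No value was whole in 23 (21.9%), against 14.9% of lines of at least 16 CPM. The lines with 12 whole values numbered 19 among the 47 lowered by zotatifin in both oxygen conditions. They numbered 12 among the 40 in neither range and 1 among the 17 raised by the drug in hypoxia. Among the 165 other lines lowered by the drug in both conditions, 19 (11.5%) had 12 whole values. These counts are a description, and the difference between the lists was not tested.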
